A study of Danio rerio with 32 samples.

Results

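The genes that surround rad21a on zebrafish chromosome 16 were examined in tailbuds of cohesin mutants. rad21a (ENSDARG00000006092, chr16:48409066-48430272, GRCz11) encodes the kleisin subunit of cohesin and carries the mutant allele of the rad21 line. A gene was taken as a member when its row lay on chromosome 16, any part of it lay within 10 Mb of rad21a, and it passed a filter on low counts; rad21a itself was left out. Of 374 rows in this window, 271 passed the filter over all 32 libraries, out of 21385 genes that passed in the whole table. The members lay unevenly, with 166 on the low-coordinate side of rad21a and 105 on the high side, where the last annotated exon of the chromosome ended 6.83 Mb beyond rad21a. Of the other 103 rows, 28 had no read in any library and 24 were named 5S_rRNA.

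RNA was sequenced from pools of 80 tailbuds cut from embryos at the 16-somite stage, with 4 pools in each of 8 groups. The groups were rad21-/- and rad21+/- embryos, which carry the nz171 allele in both copies or in 1 copy, stag2b-/- embryos with the nz207 allele, and WIK wild type, each left untreated or given 2.5 µM BIO from 4 hours after fertilization. The rad21 embryos came from 1 line and were assigned to pools after their heads were genotyped. The study lists WIK wild type as a line of its own, so mutant and wild type pools can also differ by line. BIO inhibits the kinase GSK3 and so activates Wnt signalling. Library totals ran from 32464614 to 115057368 counted fragments. The sources do not say whether the 4 pools of a group came from separate crosses, so the p-values measure the spread between these pools.

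Cohesin is a ring complex that holds sister chromatids together until anaphase and extrudes loops of chromatin, and Rad21 is the subunit that closes the ring. A mutation kept in a line is inherited together with the DNA on either side of it, so homozygous and heterozygous siblings differ in their neighbouring haplotypes as well as in the mutated gene, while distant loci segregate independently. Genes close to a mutated locus can therefore differ between such siblings for reasons other than loss of the mutated protein.

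The transcript of rad21a itself followed the labels. With BIO, rad21a had 67.9, 49.9, 49.8 and 47.5 CPM in rad21-/- pools, against 387, 369.9, 366 and 407 CPM in rad21+/- pools. In untreated tailbuds it had 53.4, 53.4, 43.9 and 64.7 CPM in rad21-/- pools, against 395, 395, 331 and 390.0 CPM in rad21+/- pools. CPM here is a gene's count scaled to library size with trimmed mean of M values (TMM) factors, and the 2 genotypes stood far apart under either treatment. The log2 fold change of rad21-/- against rad21+/- was -2.83 ± 0.11 (SE) with BIO and -2.81 ± 0.12 untreated (adjusted p = 3.06e-18 and 1.04e-10, edgeR's quasi-likelihood test). Untreated rad21+/- pools averaged 378 ± 31.2 CPM and wild type pools 784 ± 70.8 CPM (SD, n = 4 each), a log2 fold change of -1.05 ± 0.11 (adjusted p = 3.15e-06), while stag2b-/- pools averaged 732 ± 57.0 CPM.

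The first question was how the genes nearest to rad21a behaved. The 4 nearest members on the low side were EIF3H, a subunit of translation initiation factor eIF3, at 8.43 kb, csmd3a at 335 kb, SLC25A32, a mitochondrial carrier, at 959 kb and septin7b, a cytoskeletal GTPase, at 982 kb. On the high side they were EXT1, a glycosyltransferase that builds heparan sulfate chains, at 30.6 kb, pbx2, a homeodomain partner of Hox proteins, at 186 kb, notchl at 215 kb and si:ch73-376g11.3 at 241 kb. Of these 8 genes, EXT1 alone was called between rad21-/- and rad21+/- tailbuds, where called means a Benjamini-Hochberg adjusted p at or under 0.05 over all genes tested.

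EIF3H, the closest gene (ENSDARG00000102452, chr16:48282321-48400639, minus strand), had 398, 329, 311 and 359 CPM in rad21-/- pools with BIO, against 394, 331, 338 and 380.4 CPM in rad21+/- pools with BIO. Without BIO it had 320.0, 286, 308 and 318 CPM in rad21-/- pools, against 358, 334, 260 and 317 CPM in rad21+/- pools. The pools of the 2 genotypes overlapped under both treatments, and the log2 fold change was -0.05 ± 0.11 with BIO and -0.04 ± 0.12 untreated (adjusted p = 0.907 and 0.933). The gene septin7b was likewise not called, with 168 ± 11 CPM in rad21-/- and 162 ± 7.47 CPM in rad21+/- pools given BIO, and 169 ± 16.6 and 159 ± 12.2 CPM in untreated rad21-/- and rad21+/- pools.

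EXT1 (ENSDARG00000103155, chr16:48460873-48573510, plus strand) gave a different picture. It had 29.2, 29.1, 31.4 and 27.5 CPM in rad21-/- pools with BIO, against 40.0, 41.9, 41.3 and 36 CPM in rad21+/- pools with BIO. In untreated pools it had 28.0, 33, 29.2 and 29.9 CPM in rad21-/- and 40.3, 44.1, 42.9 and 42.0 CPM in rad21+/-. Every rad21-/- pool lay below every rad21+/- pool, and EXT1 fell by 0.44 ± 0.09 log2 units with BIO and by 0.49 ± 0.10 untreated (adjusted p = 0.001 and 0.00633). In bulk tissue, fewer cells of a type and less RNA per cell cannot be told apart. Untreated wild type pools, at 28.9 to 38.2 CPM, overlapped the rad21-/- pools and lay below every rad21+/- pool. Without BIO, EXT1 was called in neither rad21 genotype against wild type (adjusted p = 0.133 for rad21-/- and 0.0589 for rad21+/-). Wild type pools given BIO stood otherwise, at 36.3 to 44.1 CPM. They lay above every rad21-/- pool with BIO and overlapped the rad21+/- pools with BIO. The symbol EXT1 is carried by 2 rows of the table, as is that of EIF3H, and reads shared by near-identical copies would not have been counted.

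**Figure D1:**
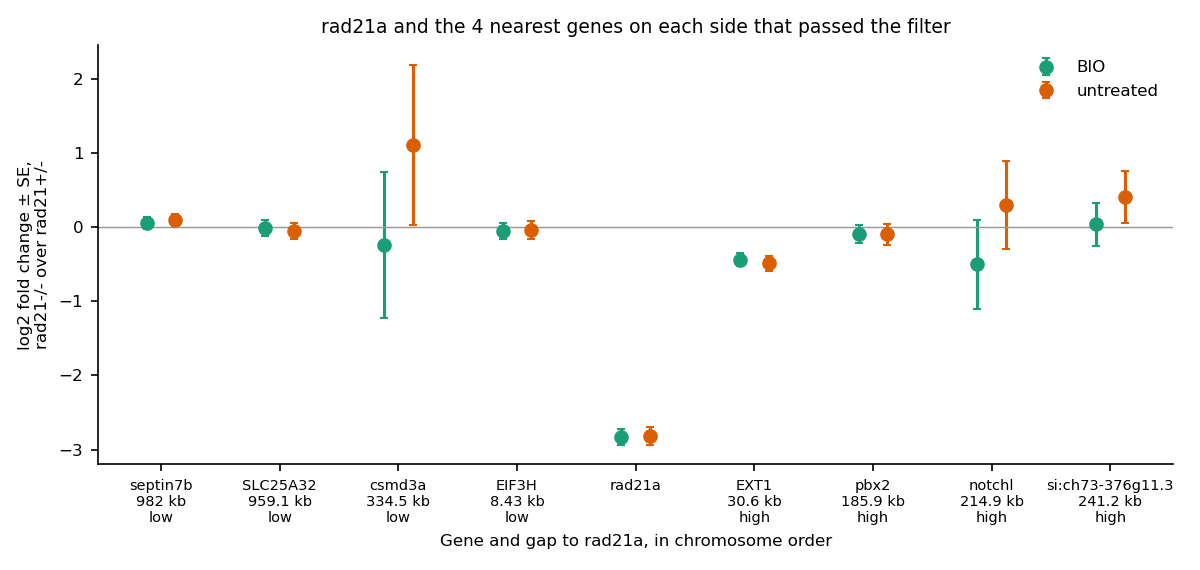
Log2 fold change of rad21-/- against rad21+/- tailbuds (y axis) for rad21a and the 4 nearest members on each side, in chromosome order with the gap to rad21a in kb (x axis); points are fitted values with BIO and untreated, and bars are ± 1 SE. The points of rad21a lie at -2.83 and -2.81 and those of EXT1 at -0.44 and -0.49, while EIF3H, septin7b, SLC25A32 and pbx2 lie within 0.10 of 0 and the low-level csmd3a and notchl have wide bars.

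Over the whole window, the shares of genes called between the rad21 genotypes stood somewhat above those in the genome for genes higher in rad21-/-, and near them for genes lower in rad21-/-. With BIO, 27 of 271 members were called (9.96%), against 7.37% of all 21385 genes; 15 were higher (5.54%, against 2.39% of all genes) and 12 lower (4.43%, against 4.98%) in rad21-/-. In untreated tailbuds, 18 of 264 members were called (6.82%), against 5.32% of all 20677 genes; 8 were higher (3.03%, against 1.47%) and 10 lower (3.79%, against 3.84%). In the mean over both treatments, which sets 8 pools against 8, 51 members were called (18.8%), against 16.5% of all genes; 23 were higher (8.49%, against 6.98%) and 28 lower (10.3%, against 9.5%). No test was made of these shares. All genes leaned to lower calls, with 1065 lower and 512 higher with BIO and 795 lower and 304 higher untreated.

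The sizes of change were read in the same way. The median log2 fold change of the members was -0.02 with BIO and 0.00 untreated, and 132 members lay above 0 and 132 below it in the untreated comparison. The median absolute log2 fold change was 0.17 with BIO and 0.19 untreated, against 0.18 over all genes in both comparisons. Changes of at least 1 log2 unit were called for 12 members with BIO (4.43%, against 3.02% of all genes) and for 5 members untreated (1.89%, against 2.98%). Pools of the 2 genotypes did not overlap for 61 members with BIO (22.5%, against 16.3% of all genes) and for 37 members untreated (14%, against 13.6%).

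Single chromosomes gave a further reference. On the 24 other nuclear chromosomes the called share ran from 3.36 to 9.83% with BIO, from 2.0 to 7.07% untreated, and from 7.82 to 20.7% in the mean over treatments. With BIO the window's share, 9.96% of 271 genes, was barely above the highest of these, 9.83% of 580 genes on chromosome 24. The window's share was exceeded by 3 chromosomes untreated and by 5 in the mean. The window holds fewer genes than any of these chromosomes, so its share is less exact. On the rest of chromosome 16, at 10 to 20 Mb from rad21a, 8.05% of genes were called with BIO and 4.65% untreated, and beyond 20 Mb 9.47% and 6.34%.

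The called share was not highest next to rad21a. Within 1 Mb, 1 of 15 members was called in the mean over treatments, and that gene was EXT1. At 1 to 2 Mb the shares were 16% on the low side and 11.1% on the high side, at 2 to 5 Mb 27.5% (11 of 40) and 22% (9 of 41), and at 5 to 10 Mb 21.6% and 9.09%. At 10 to 20 Mb the share was 16.1% and beyond 20 Mb 21.2%, against 16.3% of genes on other chromosomes. These bins hold few genes, and no test was made between them. Narrower windows gave untreated shares of 6.12% within 2 Mb (3 of 49 genes) and 8.59% within 5 Mb (11 of 128 genes).

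**Figure D2:**
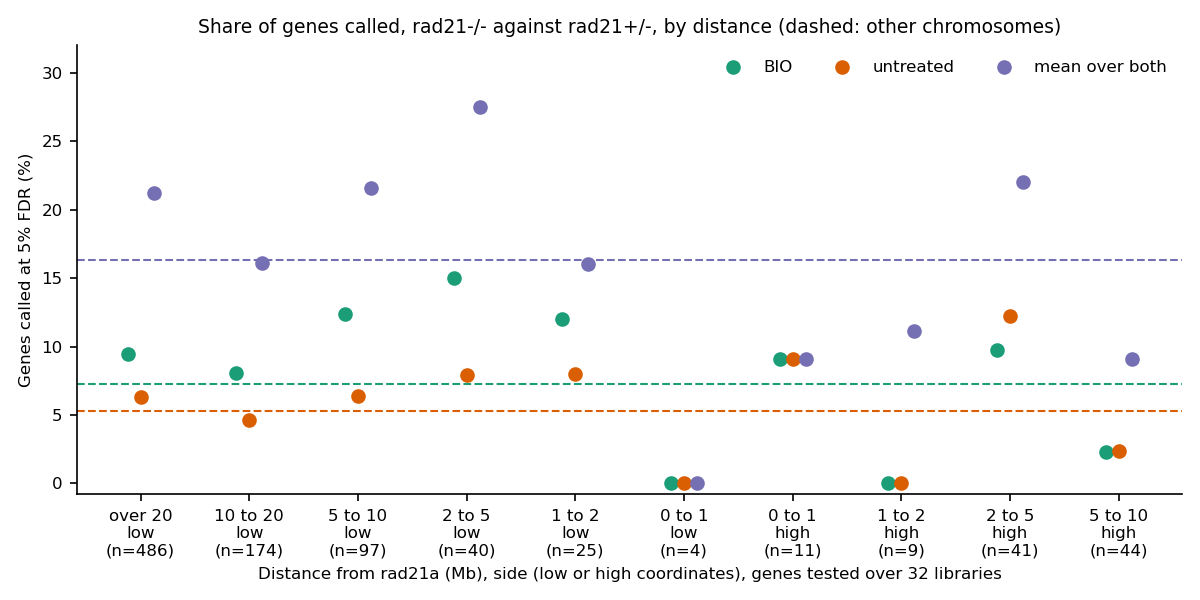
Share of tested genes called between rad21-/- and rad21+/- tailbuds (%, y axis) by distance from rad21a in Mb on either side (x axis), with BIO, untreated and in the mean over both; dashed lines are the shares on other chromosomes, and the gene numbers are those tested over 32 libraries. The mean over both treatments reaches 27.5% at 2 to 5 Mb on the low side and 22% on the high side, against 0 and 9.09% within 1 Mb.

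**Figure D3:**
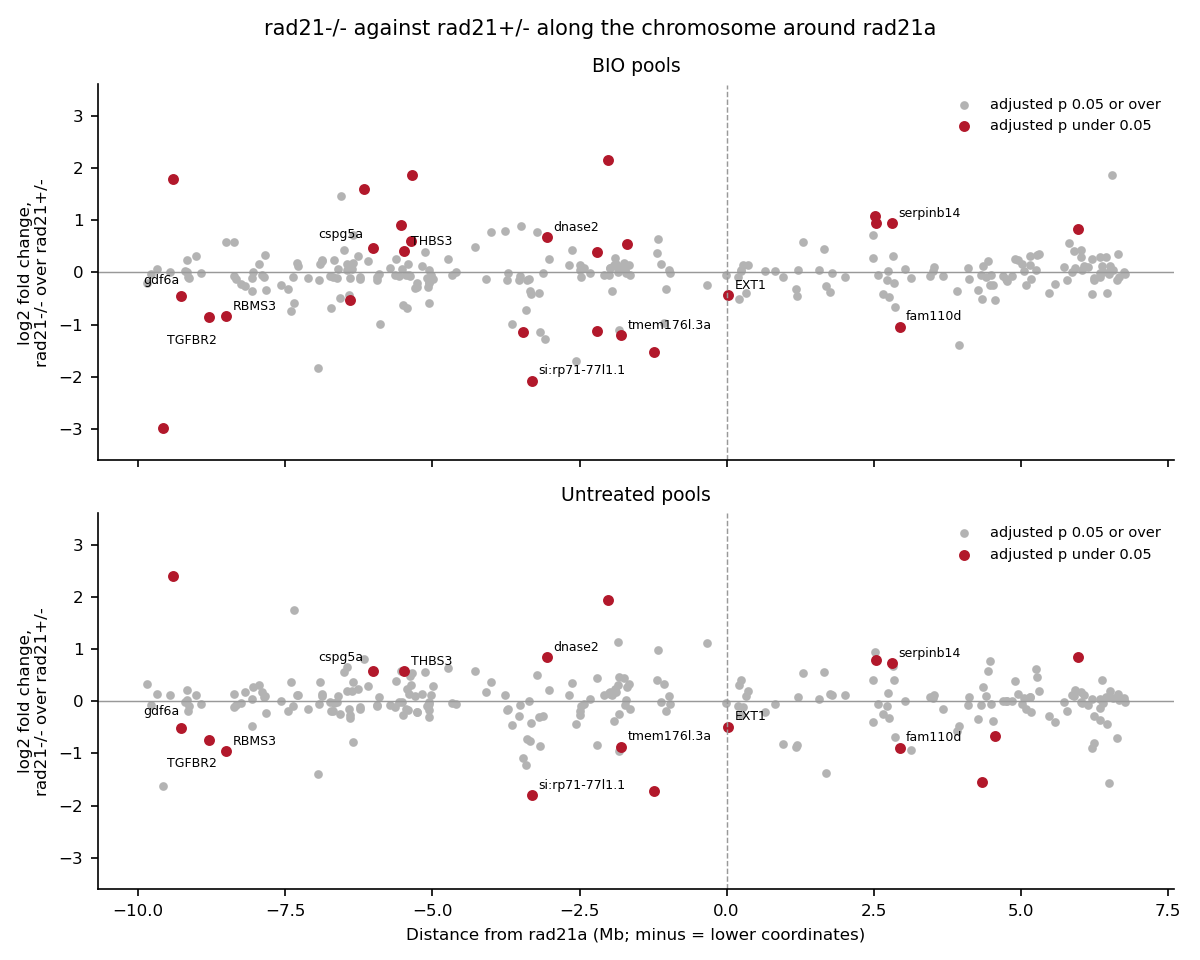
Log2 fold change of rad21-/- against rad21+/-, with BIO above and untreated below, for each member (y axis) against its distance from rad21a in Mb (x axis, negative on the low side); red points are called genes and grey ones are not. Called genes lie on both sides of 0 and over most of the window, and the medians over all members are -0.02 with BIO and 0.00 untreated.

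The BIO-treated and untreated pools are separate samples, so the members called in both could be compared. Of the members called, 16 were called in the same direction under both treatments, 8 higher and 8 lower in rad21-/-. They made up 59.3% of the calls with BIO among members tested in both and 88.9% of the untreated calls, against 55.5% and 79.3% for all genes. Over all genes 871 were called the same way in both (4.21% of those tested), 205 higher and 666 lower. No member was called for a difference between the 2 treatments in the effect of the rad21 genotype (0 of 271, against 0.00468% of all genes, edgeR's quasi-likelihood test), and DESeq2 called no member either; 4 members had an unadjusted p under 0.05 (1.48%, against 2.05% of all genes).

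Of these 16 genes, 11 averaged 1 log2 CPM or more over the 32 libraries, and they are described by role. They were picked on these calls, so pools of the rad21 genotypes that do not overlap are no further support. Pools were apart for all 18 members called untreated and for 24 of the 27 called with BIO. The first group is made of receptors, ligands and regulators that were lower in rad21-/- tailbuds. TGFBR2, the type II receptor of TGF-β, lies 8.80 Mb from rad21a on the low side. It had 12, 12.9, 14.4 and 13.3 CPM in rad21-/- pools with BIO, against 25.5, 22.4, 22.6 and 25.1 CPM in rad21+/- pools with BIO. Untreated, the rad21-/- pools had 18.8, 15.3, 15.8 and 17.4 CPM and the rad21+/- pools 28.5, 24.3, 27 and 32.6 CPM. The genotypes did not overlap, and TGFBR2 fell by 0.86 ± 0.13 log2 units with BIO and by 0.74 ± 0.15 untreated (adjusted p = 1.69e-05 and 0.00555). It was also lower in untreated rad21-/- tailbuds than in wild type (log2 fold change -1.03 ± 0.15, adjusted p = 6.26e-05). With BIO, wild type pools, at 16.4 to 21.2 CPM, lay above every rad21-/- pool and below every rad21+/- pool.

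The bone morphogenetic protein ligand gdf6a, which patterns the dorsal eye in zebrafish, lies 9.28 Mb away on the same side. Its rad21-/- pools with BIO had 22.2, 25.6, 21.1 and 24.5 CPM, against 32.5, 28.7, 32.7 and 34.5 CPM in rad21+/- pools. Without BIO they had 17, 16.5, 19.2 and 21.2 CPM, against 29.5, 24.5, 24.2 and 27.2 CPM in rad21+/- pools. Again no pool crossed over, and the fall was 0.46 ± 0.09 log2 units with BIO and 0.51 ± 0.10 untreated (adjusted p = 0.000633 and 0.00431). Untreated rad21+/- and wild type pools were close, at 26.4 ± 2.46 and 27.8 ± 0.888 CPM, a log2 fold change of -0.08 ± 0.10 (adjusted p = 0.646). With BIO, wild type pools had 25.5 to 28.9 CPM, between the rad21 genotypes and with a slight overlap with each.

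RBMS3, an RNA-binding protein encoded next to TGFBR2 at 8.51 Mb, followed another order. It had 5.73, 4.59, 4.89 and 4.61 CPM in rad21-/- pools with BIO and 7.96, 9.44, 9.09 and 8.64 CPM in rad21+/- pools with BIO. The untreated pools had 4.45, 6.30, 4.83 and 5.34 CPM in rad21-/- and 13.5, 8.08, 9.31 and 9.87 CPM in rad21+/-. Every rad21-/- pool stood below every rad21+/- pool given the same treatment, and RBMS3 fell by 0.83 ± 0.20 log2 units with BIO and by 0.96 ± 0.25 untreated (adjusted p = 0.00515 and 0.0288). Untreated rad21+/- tailbuds were also above wild type (log2 fold change 0.98 ± 0.25, adjusted p = 0.00924), whereas untreated rad21-/- differed from wild type by 0.02 ± 0.25 (adjusted p = 0.963). This order was not seen with BIO. There wild type pools, at 6.33 to 7.39 CPM, lay above every rad21-/- pool and below every rad21+/- pool. The untreated RBMS3 call was lost when any of 5 of the 8 pools was left out, with an adjusted p of up to 0.124 without rad21+/- untreated replicate 1.

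Of the remaining genes lower in rad21-/-, tmem176l.3a, a transmembrane protein gene 1.79 Mb away on the low side, was graded over the genotypes. It had 12.9, 12.5, 15.6 and 9.83 CPM in rad21-/- pools with BIO and 29.9, 28.5, 28.6 and 30.2 CPM in rad21+/- pools with BIO. Untreated, it had 16.6, 18.6, 17 and 16.6 CPM in rad21-/- pools and 25.8, 25.1, 40.4 and 34.2 CPM in rad21+/- pools. Wild type pools stood higher than both, at 45.7 ± 4.24 CPM with BIO and 58.1 ± 12.4 CPM untreated (SD, n = 4 each). The fall in rad21-/- against rad21+/- was 1.2 ± 0.15 log2 units with BIO and 0.87 ± 0.17 untreated (adjusted p = 3.57e-07 and 0.00355), and rad21+/- fell by 0.88 ± 0.17 against wild type untreated (adjusted p = 0.000969).

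The largest change among the 11 was that of si:rp71-77l1.1, 3.31 Mb away on the low side. It had 3.74, 2.50, 3.08 and 1.91 CPM in rad21-/- pools with BIO, against 13, 10.5, 10.5 and 13.4 CPM in rad21+/- pools with BIO. In untreated pools it had 5.53, 2.73, 3.34 and 4.03 CPM in rad21-/-, against 12, 13.2, 12.9 and 16.4 CPM in rad21+/-. The rad21 genotypes were well apart, with log2 fold changes of -2.07 ± 0.37 with BIO and -1.80 ± 0.44 untreated (adjusted p = 0.000291 and 0.0224). Other groups were less even, since untreated stag2b-/- pools ran from 2.30 to 15.9 CPM and untreated wild type pools from 5.55 to 13.4 CPM, and the untreated call was lost without any of 4 single pools (adjusted p up to 0.0882 without rad21-/- untreated replicate 2), with the replicate number as a block (adjusted p = 0.0703) and with no filter on low counts (adjusted p = 0.0503). The gene fam110d, 2.94 Mb away on the high side, had 16.4 to 18.7 CPM in rad21-/- and 31.3 to 40.5 CPM in rad21+/- pools with BIO, and 22.2 to 28.3 and 34.6 to 51.6 CPM in untreated rad21-/- and rad21+/- pools. It fell by 1.04 ± 0.18 log2 units with BIO and by 0.89 ± 0.22 untreated (adjusted p = 0.000139 and 0.0224), and the untreated call was lost without any of 5 pools (adjusted p up to 0.0807).

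Among genes higher in rad21-/- were those of a protease inhibitor, a lysosomal nuclease, a thrombospondin and a chondroitin sulfate proteoglycan. The gene serpinb14, of the clade B serpins, lies 2.81 Mb away on the high side and was the most abundant of them. It had 92.4, 87.5, 111 and 65.8 CPM in rad21-/- pools with BIO, against 50.6, 51.3, 50.1 and 32.2 CPM in rad21+/- pools with BIO. Untreated, it had 162, 169, 129 and 133 CPM in rad21-/- pools, against 65.8, 93.7, 82.3 and 116 CPM in rad21+/- pools. The genotypes did not overlap, and serpinb14 rose by 0.95 ± 0.20 log2 units with BIO and by 0.73 ± 0.20 untreated (adjusted p = 0.0016 and 0.0352). Both rad21 genotypes were nevertheless below wild type, which had 230.4 ± 63.0 CPM untreated (log2 fold change -0.63 ± 0.20 for rad21-/-, adjusted p = 0.0206, and -1.36 ± 0.20 for rad21+/-, adjusted p = 0.000101). The untreated call between the rad21 genotypes was lost without any of 6 pools (adjusted p up to 0.122 without rad21+/- untreated replicate 1).

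The gene dnase2, which encodes the acid nuclease of lysosomes, lies 3.05 Mb away on the low side. It had 6.4, 7.23, 7.89 and 6.15 CPM in rad21-/- pools with BIO, against 3.00, 4.84, 5.72 and 3.81 CPM in rad21+/- pools. Without BIO it had 9.83, 7.80, 6.68 and 6.64 CPM in rad21-/- pools, against 4.22, 3.44, 5.10 and 4.50 CPM in rad21+/- pools. The rise was 0.67 ± 0.18 log2 units with BIO and 0.85 ± 0.20 untreated, with no overlap (adjusted p = 0.0151 and 0.013), and either call was lost without any of 2 single pools (adjusted p up to 0.0708 and 0.0586).

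THBS3, a thrombospondin of the extracellular matrix, lies 5.48 Mb away on the low side. It had 17, 16.4, 19.6 and 17.8 CPM in rad21-/- pools with BIO, against 12.2, 12.7, 12.2 and 16.5 CPM in rad21+/- pools with BIO. Untreated, it had 22, 24.6, 19 and 22 CPM in rad21-/- pools, against 14.6, 15.3, 14.6 and 14.8 CPM in rad21+/- pools. The groups met at 1 pool with BIO and were apart without it, and THBS3 rose by 0.41 ± 0.11 and 0.57 ± 0.11 log2 units (adjusted p = 0.015 with BIO and 0.00312 untreated). The call with BIO was lost without any of 4 pools, with an adjusted p of up to 0.0696. The chondroitin sulfate proteoglycan gene cspg5a, 6.02 Mb away on the low side, had 24.6 to 31.1 CPM in rad21-/- and 18.1 to 23.6 CPM in rad21+/- pools with BIO, and 24.6 to 28.3 and 16.3 to 18.9 CPM in untreated rad21-/- and rad21+/- pools. It was higher in rad21-/- than in rad21+/- by 0.46 ± 0.10 log2 units with BIO and by 0.57 ± 0.12 untreated (adjusted p = 0.00308 and 0.00541). Its place beside wild type differed by treatment. With BIO, all wild type pools lay within the range of the rad21-/- pools and above every rad21+/- pool. Untreated wild type pools lay below every untreated rad21-/- pool and overlapped the untreated rad21+/- pools. The symbols TGFBR2 and THBS3 are each carried by 2 rows of the table.

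**Figure D4:**
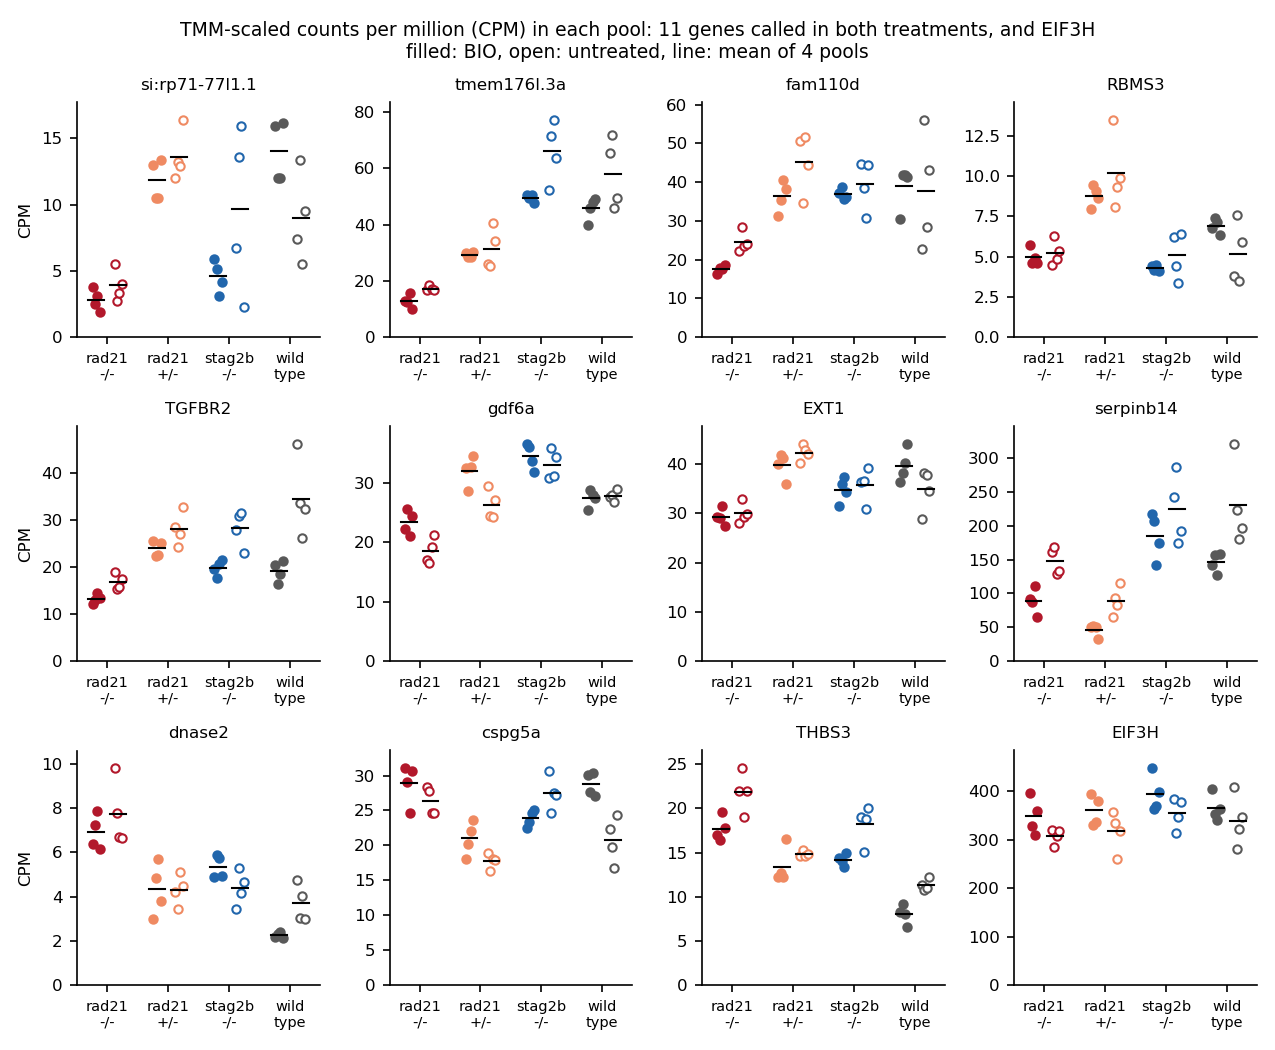
Levels in every pool (CPM, linear axes from 0) of the 11 members called the same way between the rad21 genotypes under both treatments, and of EIF3H, by genotype; filled points are BIO pools, open points untreated pools, and the short lines are means of 4 pools. In 10 of the 11 called genes the rad21-/- and rad21+/- pools do not overlap under either treatment, and for THBS3 with BIO they meet at 16.4 and 16.5 CPM. The genes were picked on calls between these same pools.

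The other 5 genes called under both treatments had an average log2 CPM under 1 and were named after their values were seen. In the mean over treatments THSD7A, a thrombospondin-domain membrane protein, was lower in rad21-/- (log2 fold change -1.63 ± 0.29, adjusted p = 9.77e-05). Higher in rad21-/- were the zinc finger transcription factor gene OSR2 (0.84 ± 0.16), si:dkeyp-97a10.2 (0.86 ± 0.13), the long non-coding RNA linc.2154 (2.04 ± 0.25) and si:ch211-69o18.1 (2.10 ± 0.32), with adjusted p between 1.51e-07 and 0.000238. In the single treatments, the call of THSD7A was lost without any of 5 of the 8 pools untreated and any of 6 with BIO (adjusted p up to 0.0783 and 0.0942), that of OSR2 without any of 4 under either treatment (up to 0.0802 untreated and 0.124 with BIO), and that of si:dkeyp-97a10.2 without any of 6 untreated (up to 0.0886). NKD2, an inhibitor of Wnt signalling that binds Dishevelled, and BAALC were called in the untreated comparison only. NKD2 had 2.35 to 2.74 CPM in untreated rad21-/- and 2.82 to 4.59 CPM in untreated rad21+/- pools (-0.66 ± 0.17, adjusted p = 0.0278, lost without any of 6 pools), and with BIO its log2 fold change was -0.52 ± 0.17 (adjusted p = 0.0584).

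In the comparison with BIO and not in the untreated one, 11 further members were called, a few of which are named here, picked on their values. The fits differed as well, since untreated calls came from 16 libraries and these from 32. The fit of 32 libraries called 30 members untreated. The largest of these changes was that of TRHR, the receptor of thyrotropin-releasing hormone, 9.58 Mb away on the low side (-2.97 ± 0.73, adjusted p = 0.00753). It was barely transcribed, at 0.0313 to 0.0691 CPM in rad21-/- pools with BIO, against 0.12, 0.164, 0.71 and 0.654 CPM in rad21+/- pools. The potassium channel gene kcnj21 rose by 1.59 ± 0.43 (adjusted p = 0.0153), with 1.77 to 2.76 CPM in rad21-/- and 0.39 to 0.917 CPM in rad21+/- pools, and SV2A, a synaptic vesicle glycoprotein gene, fell by 1.12 ± 0.33 (adjusted p = 0.0297). Among the better covered genes, BOLA1, a mitochondrial iron-sulfur protein gene, had 18.5 to 23.2 CPM in rad21-/- and 14.2 to 16 CPM in rad21+/- pools with BIO (0.40 ± 0.11, adjusted p = 0.0164), and its untreated log2 fold change was 0.44 ± 0.13 (adjusted p = 0.0522). These calls were less stable, since that of SV2A was lost without any of 4 single pools, that of kcnj21 without any of 2 and that of BOLA1 without rad21-/- BIO replicate 1 (adjusted p = 0.0814).

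Members were then grouped by function, with lists chosen when results of these data were known. Of 11 genes of the cell cycle, replication and DNA repair, 4 were called lower and none higher in rad21-/- against rad21+/- in the mean over treatments, beside 9.5% of all genes called lower, with a median log2 fold change of -0.13, against a median of -0.01 over the members. Among them were CCNE2, the G1/S cyclin E2, at -0.28 ± 0.10 (adjusted p = 0.040), dbf4, the activating subunit of the CDC7 kinase, at -0.21 ± 0.06 (adjusted p = 0.0144), and xrcc1, a scaffold of single-strand break repair, at -0.17 ± 0.05 (adjusted p = 0.00956). The CCNE2 call was lost in 13 of the 16 fits that left out a pool (adjusted p up to 0.114) and that of dbf4 in 1 (adjusted p = 0.0525 without rad21+/- BIO replicate 4), and neither treatment alone gave a call in this list. Of 6 Wnt pathway genes, 2 were called lower in the mean, NKD2 at -0.59 ± 0.12 and RSPO3, a secreted enhancer of Wnt signalling, at -0.42 ± 0.11 (adjusted p = 0.00843). RSPO3 nevertheless stood above wild type in both rad21 genotypes. Untreated, it had 4.74 to 7.55 CPM in rad21-/- and 7.42 to 10.9 CPM in rad21+/- pools, against 2.71 to 4.28 CPM in wild type pools. With BIO it had 6.43 to 8.8 and 8.58 to 11.2 CPM, against 3.8 to 4.8 CPM in wild type pools. NKD2 went the other way, since its untreated wild type pools, at 4.17 to 5.92 CPM, lay above every untreated rad21-/- pool. RSPO3 shares 85 bp of exon with si:ch211-195p4.4 on the same strand.

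None of 14 genes of translation and RNA processing was called between the rad21 genotypes in any of these comparisons (median log2 fold change -0.06 in the mean), and this list holds several of the most abundant members. Of 12 transcription factor and cofactor genes that passed the filter, OSR2 was called higher and etsrp lower in the mean, beside 6.98% of all genes called higher and 9.5% called lower. The ETS factor etsrp, which specifies endothelial and blood progenitors in zebrafish, had 55.6, 55.8, 49.5 and 68.2 CPM in rad21-/- pools with BIO, against 84.7, 71.2, 80.6 and 94.9 CPM in rad21+/- pools with BIO (log2 fold change -0.53 ± 0.15, adjusted p = 0.025). The groups did not overlap, but this call was lost without any of 6 of the 8 pools (adjusted p up to 0.138 without rad21+/- BIO replicate 4). Untreated, it had 35.6 to 52.5 CPM in rad21-/- and 48.4 to 71.3 CPM in rad21+/- pools, which overlapped (-0.33 ± 0.17, adjusted p = 0.357).

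Levels also showed what kind of genes the window holds. Per kb of exon, the highest levels belonged to HMGN2, a nucleosome-binding protein, at 883 CPM per kb, pabpc1a, the poly(A)-binding protein, at 808, the ribosomal protein gene RPL28 at 451 and eif3ea, another eIF3 subunit, at 424 CPM per kb. The median level of the members was 3.49 to 4.23 CPM per kb by group, and they took 1.19 to 1.49% of all scaled counts.

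Comparisons with wild type gave a wider view of the same genes. They share the wild type pools, so each is given by its own values. In them, an effect of the mutant genotype cannot be told apart from a difference between lines, including the haplotype linked to rad21a. With BIO, 99 members were called in rad21-/- against wild type (36.5%, against 35.6% of all genes), 72 in rad21+/- (26.6%, against 22.9%) and 37 in stag2b-/- (13.7%, against 13.6%). Untreated, 77 members were called in rad21-/- (29.2%, against 32.5%), 48 in rad21+/- (18.2%, against 20.5%) and 6 in stag2b-/- (2.27%, against 6.29%).

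Several members differed from wild type in both rad21 genotypes and were named after their values were seen. TP53INP1, a p53-induced regulator of stress responses, was higher untreated by 1.16 ± 0.15 log2 units in rad21-/- and 1.07 ± 0.15 in rad21+/- (adjusted p = 1.07e-05 and 3.94e-05). TXNIP, which binds thioredoxin, was higher by 1.59 ± 0.23 and 1.02 ± 0.22 (adjusted p = 3.74e-05 and 0.00315), and rpz was higher by 1.14 ± 0.11 and 0.97 ± 0.11 (adjusted p = 3.61e-07 and 3.84e-06). The gene rpz shares 109 bp of exon with rpz2 on the same strand, so its counts are uncertain. The enzyme gene NAGPA fell by 1.07 ± 0.18 and 1.15 ± 0.18 (adjusted p = 0.000196 and 0.000158).

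The near neighbour csmd3a was among the genes that differed from wild type in both rad21 genotypes. It had 0.174, 0.147, 0.0207 and 0.0227 CPM in untreated rad21-/- pools and 0.0639 CPM or less in untreated rad21+/- pools, against 0.502, 2.76, 0.399 and 0.742 CPM in untreated wild type pools. With BIO it averaged 0.0506 ± 0.0462 CPM in rad21-/- and 0.076 ± 0.0617 CPM in rad21+/- pools, against 0.565 ± 0.214 CPM in wild type pools. No rad21 pool reached the lowest wild type pool, at levels close to the limit of detection, and 1 untreated rad21+/- pool had no read. The log2 fold change against wild type was -3.53 ± 0.83 in untreated rad21-/- tailbuds (adjusted p = 0.00377, and -2.55 without wild type untreated replicate 2) and -3.31 ± 0.77 with BIO (adjusted p = 0.00109). In stag2b-/- it was not called (-1.62 ± 0.72 untreated, adjusted p = 0.21).

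DPYS, the dihydropyrimidinase of pyrimidine breakdown, had 2.56, 1.82, 1.02 and 2.07 CPM in untreated rad21-/- pools and 1.42, 1.29, 1.98 and 1.92 CPM in untreated rad21+/- pools, against 11.8, 34, 0.918 and 12.3 CPM in untreated wild type pools. With BIO it averaged 1.52 ± 0.577 CPM in rad21-/- and 1.67 ± 0.299 CPM in rad21+/- pools, against 19.9 ± 3.39 CPM in wild type pools. All wild type pools but replicate 3 of the untreated group stood well above the rad21 pools. The untreated log2 fold change was -2.97 ± 0.76 in rad21-/- and -3.16 ± 0.76 in rad21+/- (adjusted p = 0.00914 and 0.0101; in rad21-/- -2.16 without wild type untreated replicate 2, and an adjusted p of 0.0518 in a fit of only these 8 libraries), and with BIO -3.69 ± 0.59 and -3.57 ± 0.59 (adjusted p = 2.09e-05 and 6.01e-05). The rad21 genotypes differed from each other by 0.18 ± 0.76 untreated (adjusted p = 0.954), an estimate with a wide error.

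Genes that the study itself singled out on these samples were lower as well, and they are no independent evidence of a direction. Untreated, etsrp fell by 0.79 ± 0.17 in rad21-/- against wild type (adjusted p = 0.00152), CCNE2 by 0.45 ± 0.16 (adjusted p = 0.0386), dbf4 by 0.45 ± 0.10 (adjusted p = 0.00271) and cep72, a centrosomal protein gene, by 0.68 ± 0.19 (adjusted p = 0.0122). In rad21+/- against wild type, cep72 was called (-0.78 ± 0.19, adjusted p = 0.00729), and the other 3 were not (adjusted p from 0.0565 to 0.348). Of the 11 genes of the cell cycle, replication and repair list, 6 were lower and none higher in untreated rad21-/- tailbuds against wild type, where 16.7% of all genes were lower.

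In stag2b-/- tailbuds, whose labels name no rad21 allele, the 6 members called against untreated wild type were all higher. Their share, 2.27%, was near the 2.41% of all genes called higher, where 6.29% of all genes were called in either direction. With BIO, 21 members were higher and 16 lower in stag2b-/- than in wild type. The nuclear receptor gene nr1d2a, of the Rev-erb family of clock repressors, had 2.84, 4.05, 4.19 and 1.90 CPM in untreated stag2b-/- pools, against 0.873, 1.23, 0.452 and 1.36 CPM in wild type pools (log2 fold change 1.71 ± 0.35, adjusted p = 0.00613). THBS3 had 19, 15.1, 18.8 and 20.1 CPM, against 11.3, 10.8, 11 and 12.2 CPM in wild type (0.68 ± 0.11, adjusted p = 0.000921). Neither gene's pools overlapped with those of wild type. THBS3 also stood above wild type in untreated rad21-/- (0.95 ± 0.11) and rad21+/- tailbuds (0.39 ± 0.11, adjusted p = 4.07e-06 and 0.0173).

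A pair of neighbouring genes, si:dkeyp-97a10.1 and si:dkeyp-97a10.3, lies about 2.50 to 2.52 Mb from rad21a on the high side. The less abundant si:dkeyp-97a10.1 had 4.73, 4.05, 4.57 and 3.78 CPM in untreated stag2b-/- pools, against 2.33, 2.01, 0.785 and 1.17 CPM in wild type pools (1.44 ± 0.27, adjusted p = 0.00344), and in untreated rad21+/- it had 0.468 to 0.673 CPM (-1.45 ± 0.29 against wild type, adjusted p = 0.0015). For si:dkeyp-97a10.3 the stag2b-/- pools had 47.0, 60.1, 43.0 and 55.3 CPM, against 38.1, 37.9, 19.4 and 35.5 CPM in wild type (0.64 ± 0.19, adjusted p = 0.0483). Both genes were higher in stag2b-/- and lower in rad21+/- than in wild type, with a log2 fold change of -1.03 ± 0.19 for si:dkeyp-97a10.3 in untreated rad21+/- (adjusted p = 0.000724). Their untreated rad21-/- pools overlapped those of wild type, at 0.932 to 1.29 CPM for si:dkeyp-97a10.1 and 16.8 to 24.5 CPM for si:dkeyp-97a10.3. The next member, si:dkeyp-97a10.2, was not called in untreated stag2b-/-, with 1.73 to 2.29 CPM against 1.21 to 1.98 CPM in wild type. The orphan nuclear receptor gene nr2f5 had 223 to 282 CPM in stag2b-/- and 143 to 234 CPM in wild type pools (0.49 ± 0.13, adjusted p = 0.0257), which overlapped, and ifnlr1, the gene of an interferon lambda receptor chain in mammals, rose by 1.68 ± 0.25 (adjusted p = 0.000384). The calls of nr2f5 and si:dkeyp-97a10.3 were lost without any of 5 single pools each (adjusted p up to 0.0852 and 0.126), and in a fit of only the 8 libraries compared (adjusted p = 0.119 and 0.133). The gene ifnlr1 and si:dkeyp-97a10.1, with an average log2 CPM under 1, were named after their values were seen.

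**Figure D5:**
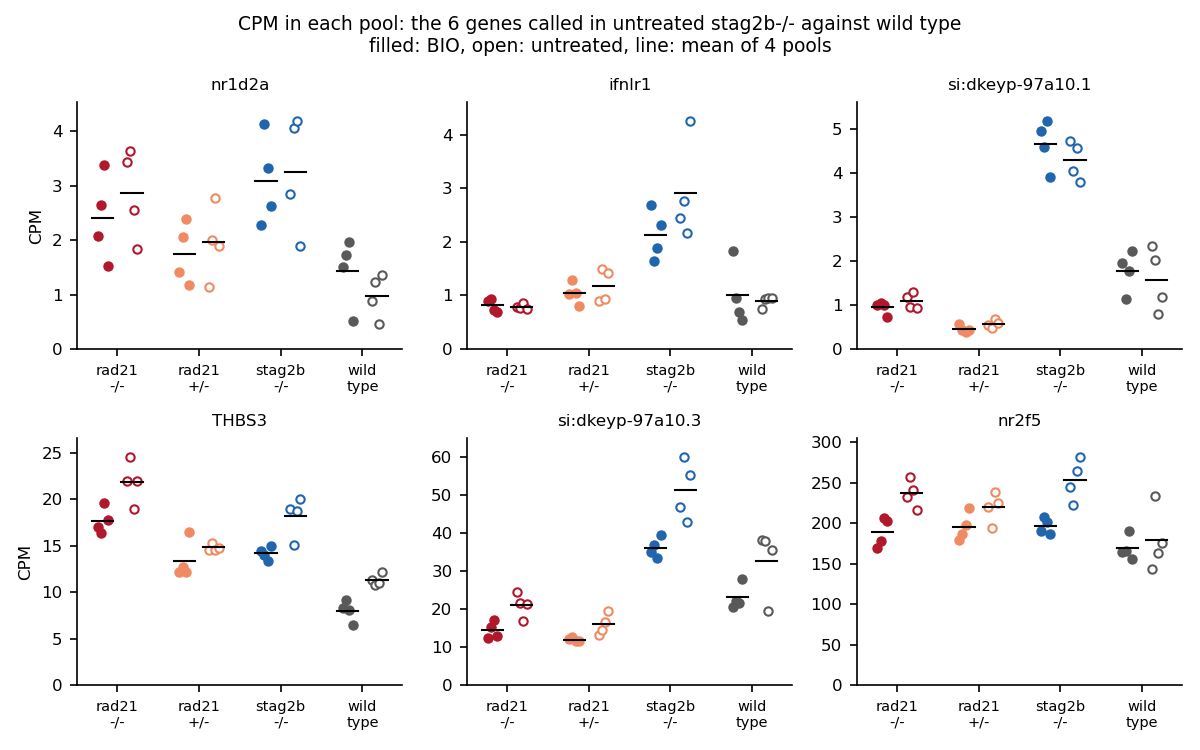
Levels in every pool (CPM, linear axes from 0) of the 6 members called between stag2b-/- and wild type untreated tailbuds, by genotype; filled points are BIO pools, open points untreated pools, and the short lines are means of 4 pools. The untreated stag2b-/- pools of THBS3 lie at 15.1 to 20.1 CPM, against 10.8 to 12.2 CPM in untreated wild type pools.

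The response of the members to BIO was set beside that of all genes in each genotype. BIO changed 20 members in rad21-/- tailbuds (7.38%, against 7.16% of all genes) and 7 in rad21+/- (2.58%, against 3.62%). In stag2b-/- it changed 27 (9.96%, against 7.99%) and in wild type 46 (17%, against 17.3%). In wild type, 11 members were higher (4.06%, against 7.58% of all genes) and 35 lower (12.9%, against 9.76%). Of the members, 41 were called in 1 genotype (15.1%, against 17.1% of all genes), 22 in 2 (8.12%, against 5.08%), 5 in 3 (1.85%, against 2.17%) and none in all 4 (against 0.58%). None was called higher in one genotype and lower in another, as were 0.164% of all genes.

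Of the members called in 3 genotypes, 4 are described here and were named after their values were seen. The gene serpinb14 fell with BIO by 0.73 ± 0.20 log2 units in rad21-/-, by 0.96 ± 0.20 in rad21+/- and by 0.66 ± 0.20 in wild type tailbuds (adjusted p = 0.02, 0.0105 and 0.0189). Its level in stag2b-/- was 185 ± 34.4 CPM with BIO and 224 ± 50.9 CPM untreated, which was not called (-0.28 ± 0.19, adjusted p = 0.431). The gene kdf1a, whose mammalian counterpart regulates keratinocyte differentiation, also fell in 3 genotypes, by 0.58 ± 0.13 in wild type, and si:dkeyp-97a10.3 fell by 0.50 ± 0.16 there (adjusted p = 0.00188 and 0.0267). TMEM147, a membrane protein of the endoplasmic reticulum, rose in 3 genotypes, by 0.29 ± 0.08 in wild type (adjusted p = 0.00677). In wild type the call of serpinb14 was lost without either of 2 single pools (adjusted p = 0.0642 without BIO replicate 3 and 0.128 without untreated replicate 1), and that of TMEM147 in a fit of wild type libraries alone (adjusted p = 0.0681). In wild type tailbuds the receptor gene TGFBR2 fell with BIO by 0.85 ± 0.13 (adjusted p = 2.87e-05), to 19.1 ± 2.13 CPM, against 34.5 ± 8.37 CPM untreated. The R-spondin gene RSPO2, a secreted enhancer of Wnt signalling, fell by 0.72 ± 0.17 in rad21-/- (adjusted p = 0.00825) and by 0.54 ± 0.17 in stag2b-/- (adjusted p = 0.0454), and was not called in wild type (-0.16 ± 0.17, adjusted p = 0.571); whether genotypes differed in this response was not tested. The RSPO2 call in rad21-/- was lost without BIO replicate 1 or untreated replicate 2 (adjusted p = 0.052 and 0.0591), and that in stag2b-/- without any of 7 of the 8 pools (adjusted p up to 0.135) and with no filter (adjusted p = 0.0558).

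Cell type markers were read beside these results. Of 10 tailbud progenitor markers 7 were found in the table, and their summed level was 1384 to 1469 CPM in rad21-/- and 1601 to 1969 CPM in rad21+/- pools with BIO, and 1008 to 1306 and 1267 to 1677 CPM in untreated rad21-/- and rad21+/- pools. Of the 7, 5 were called lower and 1 higher in rad21-/- with BIO, and 3 lower and 1 higher untreated. Of 5 markers of brain and eye, tissue outside the dissection, 2 were found, with both called lower untreated and 1 with BIO. Their sum was 16.8 to 21.3 CPM in untreated rad21-/- and 29 to 45.4 CPM in untreated rad21+/- pools. Nearly all of it was emx3, with means of 18.7 and 36.8 CPM, while rx3 averaged 0.112 and 0.466 CPM. Of the 5 blood markers 1 was called lower with BIO and none untreated, and no epidermis or hatching gland marker was called between the rad21 genotypes under either treatment. The summed level of the 4 skeletal muscle markers found was 335 to 447 CPM in untreated rad21-/- and 319 to 455 CPM in untreated rad21+/- pools, and 1 of the 4 was called lower under each treatment. Their part in the changes of the members was not tested.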

How the data were processed

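Total RNA from tailbud pools was made into poly(A) libraries with a stranded kit. Per the labels and the study's methods, the authors used Cutadapt for trimming and HISAT2 for alignment (GRCz11), and then featureCounts 1.5.3 with Ensembl 98 gene models, by strand and without multi-mapping or multi-overlapping reads; the deposited values are raw counts. Reads of near-identical copies are therefore lost. Symbols came from a table of gene IDs, which named 344 of the 374 window rows and 28988 of 32057 rows in all.

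Counts were tested with edgeR 4.0.16 (TMM scaling, filterByExpr, robust quasi-likelihood fit, 1 mean per group) in R 4.3.3, with Benjamini-Hochberg adjustment over all genes tested and calls at 5% FDR. Each SE was derived from the test, as the absolute log2 fold change over the square root of the quasi-likelihood F statistic. Untreated genotypes were compared in a fit of the 16 untreated libraries (20677 genes) and all other contrasts in a fit of 32 libraries (21385 genes). Lists are described by counts and medians beside all genes, with no set test. TMM factors ran from 0.8737 (wild type untreated replicate 1) to 1.064. Of the members that passed, 9 share exon sequence with a gene on the same strand and 25 carry a symbol used by more than 1 row. Scripts were tested on simulated counts. Python 3.11.15 with pandas 2.3.3 and matplotlib 3.10.9 made the summaries and figures.

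The members and all lists were chosen with earlier results of these data known. The members named were, by rule, those called between the rad21 genotypes under both treatments in 1 direction averaging 1 log2 CPM or more (up to 10 each way), the 4 nearest to rad21a on each side, up to 2 each way among those called in stag2b-/- against wild type untreated, up to 4 called in the interaction, and those the study named; others are marked as chosen after their values were seen. A member that belongs to these results is not reported here. Alternatives were DESeq2 1.42.0, its size factors, no filter, all 32 libraries or only the libraries compared, other windows, the replicate number as a block, and leaving out each pool.

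Groups share replicate numbers, but nothing says that a number marks a shared clutch. The sample numbers in the column headers run on by replicate number, so that same-numbered pools of all groups follow each other. What this order stands for is not stated. The correlation of same-numbered rad21-/- and rad21+/- pools, as deviations from their group means, was -0.061 to 0.109 untreated and 0.108 to 0.379 with BIO. With BIO, 2 of the 4 rad21-/- pools correlated best with the rad21+/- pool of their own number, and 1 did untreated. All 4 wild type BIO pools correlated best with the pool of their own number among untreated stag2b-/-, untreated rad21+/- and rad21-/- BIO pools. All 4 untreated rad21+/- pools did so with rad21+/- BIO pools, and all 4 stag2b-/- BIO pools with rad21-/- BIO pools. None of the untreated wild type pools did so with untreated rad21+/- or untreated stag2b-/- pools. If numbers paired nothing, about 1 of 4 pools would match by number. Matches by number were thus frequent in several pairs of groups, also across genotypes and treatments. Whether a number marks a shared batch or clutch was not tested. Over all pairs of groups these correlations ran from -0.146 to 0.379, and groups of another genotype and treatment (stag2b-/- untreated and rad21-/- BIO) also gave 0.157 to 0.225. The fits reported have no block and so ignore any pairing by number, and the block is an alternative.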

Additional observations from a re-analysis of the deposited data

Results flagged for a closer look

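In groups of 4 pools, the highest or lowest pool was set against the others for rad21a and 54 members followed in detail by Dixon's criterion, the gap to the nearest other pool over the group's range. Of 440 groups 20 had such a pool, where about 1 in 20 (22) would by chance. For rad21a, rad21-/- BIO replicate 1 had 67.9 CPM (others 47.5 to 49.9) and rad21+/- untreated replicate 3 had 331 CPM (others 390.0 to 395). Among genes called between the rad21 genotypes, rad21+/- BIO replicate 4 had 32.2 CPM of serpinb14 (others 50.1 to 51.3) and 16.5 CPM of THBS3 (others 12.2 to 12.7), and wild type BIO replicate 1 had 30.5 CPM of fam110d (others 41.3 to 41.9).

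In rad21 pools, apart pools were rad21-/- BIO replicate 1 for notchl (0.298 CPM), rad21-/- untreated replicate 1 for si:ch73-376g11.3 (2.58 CPM), rad21-/- BIO replicate 4 for si:dkeyp-97a10.1 (0.737 CPM), rad21-/- untreated replicate 2 for cndp1 (5.63 CPM), rad21-/- BIO replicate 1 for BOLA1 (23.2 CPM), and rad21+/- untreated replicate 2 for RSPO2 (26.9 CPM). In stag2b-/- pools they were untreated replicate 4 for linc.2154 (0.404 CPM) and rpz (15.6 CPM), untreated replicate 3 for xrcc1 (114 CPM) and BIO replicate 3 for RSPO2 (27.8 CPM).

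In wild type pools they were untreated replicate 2 for csmd3a (2.76 CPM), untreated replicate 3 for si:dkeyp-97a10.3 (19.4 CPM), untreated replicate 1 for ifnlr1 (0.742 CPM), BIO replicate 3 for pbx2 (85.9 CPM) and BIO replicate 1 for THSD7A (0.227 CPM).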

How the results depend on the processing

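Among the genes followed by name, no called value changed direction under the alternatives run; 930 values kept their side of the threshold and 55 calls lost it. Between the rad21 genotypes untreated, 18 members were called, and 30 in the fit of all 32 libraries (11.1% against 6.82%, all genes 1787 against 1099). With no filter, 15 were called, 4.41% of a larger number tested (all genes 991 against 1099). Changes of at least 1 log2 unit were called for 1.89%, against 2.98% of all genes. In rad21+/- against wild type untreated the fit of 32 libraries called 74 (against 48; all genes 6027 against 4247), and in stag2b-/- against wild type untreated it called 28, DESeq2 21 and the replicate block 11 (against 6), beside 2480, 2044 and 1371 of all genes (against 1300). For BIO the replicate block called 31 in rad21-/- (against 20; all genes 2412 against 1532) and 17 in rad21+/- (against 7), where DESeq2 called 13 and no filter 2, beside 1836, 1521 and 513 of all genes (against 775); in wild type only the libraries compared gave 16 (against 46; all genes 1603 against 3709). With BIO, the replicate block called 32 members between the rad21 genotypes (against 27, all genes 1895 against 1577), and no member's call was lost. That block gave all 8 groups the same replicate terms, and no block was fitted to the pools given BIO alone. The causes were not tested.

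Leaving out single pools gave 19 to 25 calls between the rad21 genotypes with BIO and 11 to 15 untreated (4.1 to 5.6%; 11 without rad21-/- untreated replicate 4), 45 to 52 in the mean and 0 in the interaction. Against wild type, rad21-/- had 88 to 97 calls with BIO and 59 to 78 untreated, rad21+/- had 56 to 66 and 40 to 58, and stag2b-/- had 26 to 35 and 5 to 11 (10 and 11 without wild type untreated replicates 1 and 2). For BIO against untreated the ranges were 3 to 25 for rad21-/- (3 without untreated replicate 2), 0 to 7 for rad21+/- (0 without untreated replicate 4), 13 to 26 for stag2b-/- (13 without BIO replicate 3 or 4) and 34 to 52 for wild type. Such counts of BIO calls in rad21 tailbuds depended on which pools were kept. Counts of all genes in these fits are not set beside them, so the ranges cannot be read as a trait of the members.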
